A study of Mus musculus with 4 samples.

Results

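Messenger RNA of 32 genes for translation factors, aminoacyl-tRNA synthetases and RNA-modifying enzymes was examined in the pyloric stomach of mice. The 32 genes are those whose symbols match a fixed set of family names (Eif, Eef, the synthetases, Trmt, Pus, Nsun, Mettl, Elp, Tsr, Gspt, Etf1, Abce1, Abcf and Larp) among 2701 genes in the authors' deposited table. That table lists genes at an adjusted p of at most 0.05, so every member had already passed the authors' threshold. Presence in the table is therefore no result, while the direction, the size and the spread of each change are.

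The mice were on a C57BL/6 background and all carried floxed Lats1 and Lats2, which encode kinases of the Hippo pathway. Lats1/2iΔLgr5 denotes 2 libraries from Lats1fl/fl;Lats2fl/fl;Lgr5-CreER mice, in which tamoxifen activates Cre in Lgr5-positive gland-base stem cells, and WT denotes 2 libraries from Lats1fl/fl;Lats2fl/fl mice without Cre. Pylorus was collected 8 weeks after tamoxifen, and RNA came from several 10 µm cryosections. The mice's age and whether animals were pooled do not appear in the labels, so p-values measure only the spread between these libraries.

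The labels name the tissue pyloric epithelium, yet a section holds every cell type, and the gastrokine genes of surface mucous cells and the fibroblast collagen gene Col3a1 were both present in all libraries. Fewer cells of a type and less RNA per cell cannot be told apart in such samples. The CreER allele is present in the Lats1/2iΔLgr5 mice alone, so its own effect and that of the deletion cannot be told apart.

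Levels are read counts divided by the authors' library size factors (normalized counts). Listed genes held 13413629 and 14225132 counts in Lats1/2iΔLgr5 1 and 2, against 14315314 and 17689207 in WT 1 and 2. Lats1 had 942.5 and 1129 normalized counts in the Lats1/2iΔLgr5 libraries, against 2152 and 1974 in the WT libraries, lower in both libraries labelled as deleted. The count spans the whole gene, so reads outside the deleted part and from unrecombined cells stay in it.

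Protein synthesis begins when initiation factors place the ribosome and the initiator tRNA at a start codon. Elongation factors then deliver charged tRNAs and move the ribosome, and release and recycling factors end the cycle. Aminoacyl-tRNA synthetases charge each tRNA with its amino acid, one set in the cytosol and another in mitochondria. Pseudouridine synthases, methyltransferases and the Elongator complex modify bases of tRNA and other RNAs, which affects folding, stability and decoding. Demand for this machinery is high in growing and dividing cells and in secretory epithelium.

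Of the 32 members, 26 rose and 6 fell in the Lats1/2iΔLgr5 pylorus. The members that rose were 81.2% of those listed, against 42.9% among all 2701 listed genes, of which 1158 rose. That contrast depends on scaling: on TMM factors computed from the listed genes, 70.1% of all edgeR calls were higher, and the members had 26 calls higher and 3 lower. Members that fell stand against 57.1% of all listed genes. The families hold 182 annotated protein-coding genes, of which 17.6% were listed, against 11.9% of the 21951 protein-coding genes in the annotation and 20.6% of the genes that the authors tested (a number inferred as 13137). Genes absent from the table were not analysed here, and nothing is said of their change.

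The changes were moderate. The edgeR log2 fold change had a median of 0.82 over the 26 members that rose (0.40 to 1.45), against 1.09 over all 1158 listed genes that rose. Over the 6 that fell the median was -0.78 (-1.39 to -0.43), against -0.73 over all listed genes that fell. In the authors' deposited table, 8 members had a log2 fold change of at least 1 and 2 had one of -1 or less, against 20.7% and 13.6% of all listed genes. The normalized counts of Lats1/2iΔLgr5 and WT did not overlap in any of the 32 members, a property shared by 99.9% of listed genes.

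**Figure D1:**
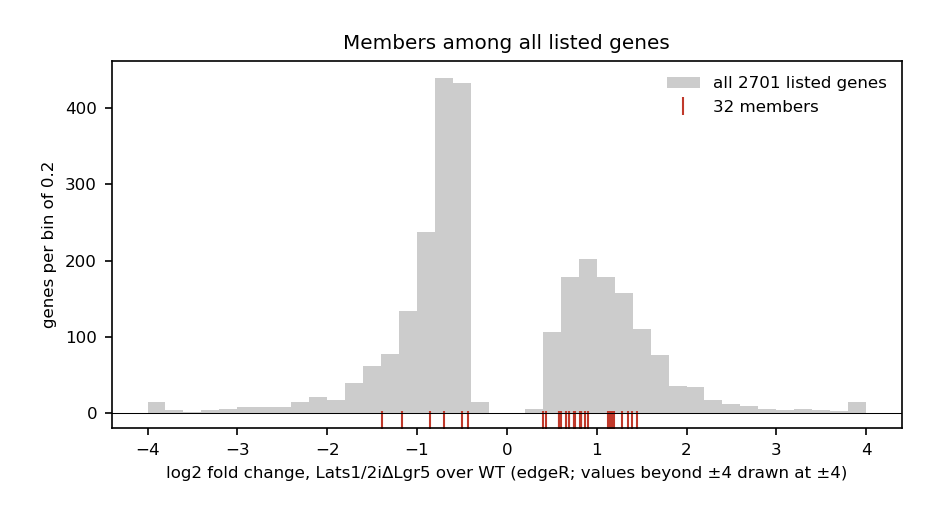
Histogram of edgeR log2 fold changes (x axis, Lats1/2iΔLgr5 over WT) for all 2701 listed genes, in genes per bin on the y axis, with a red tick under the axis for each of the 32 members. The gap around 0 comes from the authors' threshold. Most ticks, 26, lie right of 0 while 42.9% of all listed genes do, and no tick lies beyond 1.45 on the right or -1.39 on the left.

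The members that rose also shared an order of libraries. Lats1/2iΔLgr5 2 was above Lats1/2iΔLgr5 1 in 23 of the 26, against 70.7% of all listed genes that rose. WT 1 was above WT 2 in 21 of the 26 (80.8%), against 56.5% of all listed genes that rose. Genes of cycling cells also rose, all 12 of a list of 12 (Mki67, Top2a, Pcna, Mcm2 to Mcm7, Ccnb1, Cdk1 and Ccna2), but their order of libraries differed from the members' within WT. WT 2 was above WT 1 in all 12, and Lats1/2iΔLgr5 2 was above Lats1/2iΔLgr5 1 in 7. Their summed level was 26399 and 29014 normalized counts in Lats1/2iΔLgr5, against 8657 and 13172 in WT. Surface mucous markers moved the other way. Of a list of 10, 7 were listed and all 7 fell, with a summed level of 2548603 and 2083744 normalized counts in Lats1/2iΔLgr5, against 4670452 and 4968338 in WT. Other marker lists had fewer listed genes. The 2 listed parietal genes fell (Kcnj15 by 3.27-fold), as did both listed fibroblast collagen genes, the tuft gene Avil and the endothelial gene Kdr. The 2 listed enteroendocrine genes rose: Ghrl had 246.3 and 1288 normalized counts in Lats1/2iΔLgr5, against 41.6 and 34.2 in WT, and Sst rose as well. The gland mucous gene Dmbt1 and the myeloid gene Cd14 rose 1.91-fold and 2.42-fold, and of 2 listed pancreatic acinar genes Cela1 rose and Cela2a fell. The part of any of these populations in the members' levels was not tested. Of the smooth muscle, T and NK, B and plasma, and chief cell marker lists, no gene was listed.

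**Figure D2:**
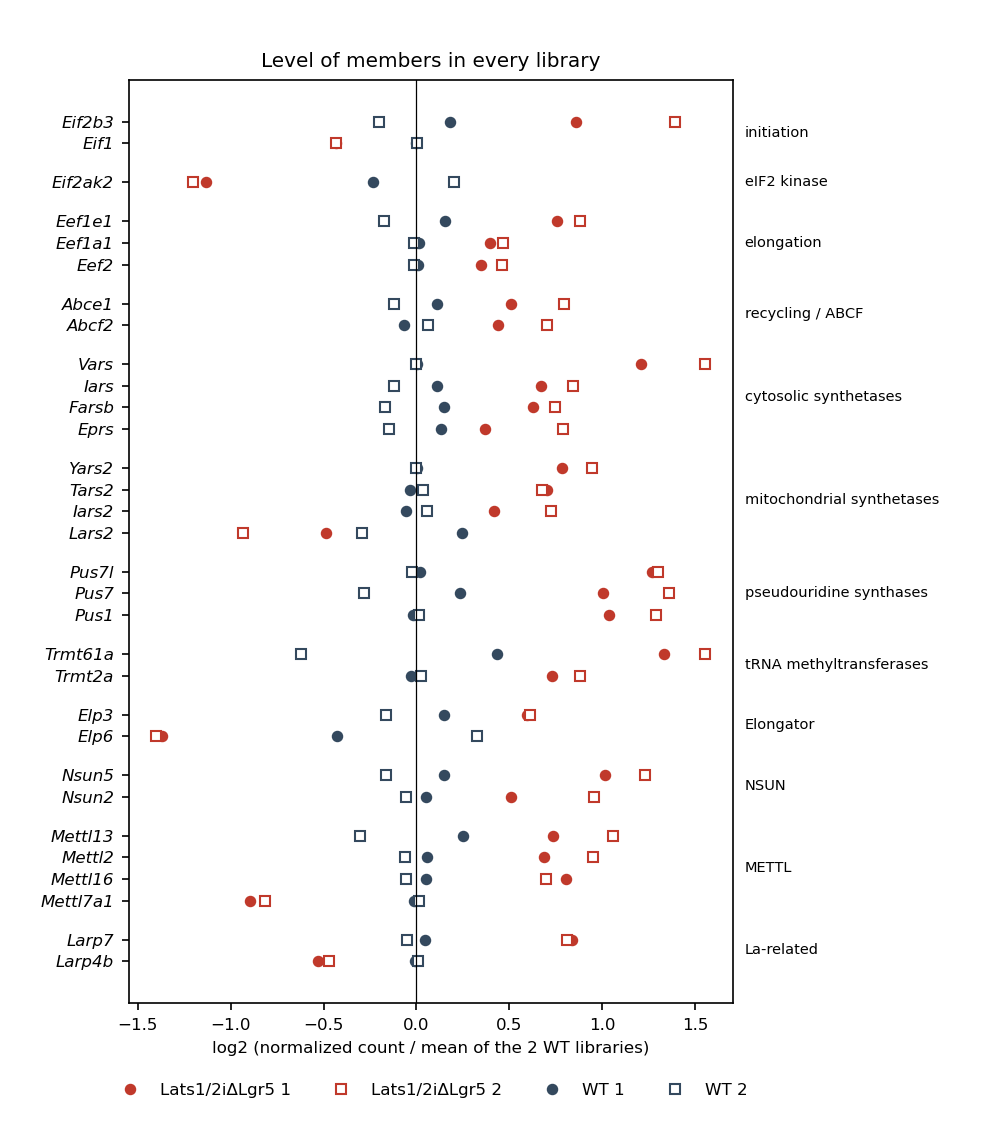
Level of 31 members in each of the 4 libraries, as log2 of the normalized count over the mean of the 2 WT libraries (x axis), with members grouped by role down the page. Filled red circles and open red squares are Lats1/2iΔLgr5 1 and 2, and filled and open dark symbols are WT 1 and 2; symbols that coincide lie on top of each other. Red symbols lie right of both dark ones in 25 members and left of both in 6 (Eif1, Eif2ak2, Lars2, Elp6, Mettl7a1 and Larp4b). Such separation was shared by 99.9% of listed genes.

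Promoter sequences were available for 25 of the 32 members, in 28 windows of 300 bases (250 before to 50 after an annotated start; RefSeq, GRCm38.p6). Windows for the other 7 members, Vars and Eif2b3 among them, were not analysed here. The E-box CACGTG, the motif bound by Myc and its partners and by other helix-loop-helix proteins, reads the same on both strands. It was found in 7 of the 28 windows (25.0%), against 9.98% of windows of all listed genes and 7.15% of all promoters. Among members that rose it was in 7 of 22 windows (31.8%), against 11.8% for all listed genes that rose. The 7 windows belong to 6 members, all of which rose: Eef2, Farsb, Iars, Pus1 (both of its overlapping windows), Pus7 and Trmt61a. Most members with a window rose, 19 of the 25, so the shared direction of these 6 says little about the motif. A match is a description of the letters and not evidence of a bound site.

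The stretch from 100 bases before to 50 bases after the start is shown for these 6 members because they hold the E-box. Each reads 5′ to 3′ on the gene's own strand, with the E-box in capitals; in Iars the capitals near the start also mark a second motif, described next.
Eef2 (chr10:81176531-81176680, plus strand): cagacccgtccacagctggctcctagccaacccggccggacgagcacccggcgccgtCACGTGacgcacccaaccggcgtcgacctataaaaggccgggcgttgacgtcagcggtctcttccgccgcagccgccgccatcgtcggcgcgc
Farsb (chr1:78488848-78488997, minus strand): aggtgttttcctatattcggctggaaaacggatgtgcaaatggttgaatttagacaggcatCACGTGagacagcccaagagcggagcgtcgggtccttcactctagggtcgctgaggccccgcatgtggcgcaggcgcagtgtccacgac
Iars (chr13:49682030-49682179, plus strand): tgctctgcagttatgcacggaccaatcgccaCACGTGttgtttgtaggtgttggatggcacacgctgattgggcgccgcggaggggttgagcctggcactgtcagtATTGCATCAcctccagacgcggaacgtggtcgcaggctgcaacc
Pus1 (chr5:110780547-110780696, minus strand): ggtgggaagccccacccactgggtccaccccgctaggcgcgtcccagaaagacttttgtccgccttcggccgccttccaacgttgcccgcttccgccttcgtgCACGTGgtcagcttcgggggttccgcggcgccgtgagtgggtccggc
Pus7 (chr5:23783662-23783811, minus strand): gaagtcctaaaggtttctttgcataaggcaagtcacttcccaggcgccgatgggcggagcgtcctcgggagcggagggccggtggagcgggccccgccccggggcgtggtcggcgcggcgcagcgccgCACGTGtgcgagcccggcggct
Trmt61a (chr12:111678005-111678154, plus strand): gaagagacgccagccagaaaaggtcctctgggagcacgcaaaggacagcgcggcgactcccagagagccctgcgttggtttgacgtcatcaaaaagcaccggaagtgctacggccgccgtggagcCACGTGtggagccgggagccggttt

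Counted from the annotated start as 0, the E-box begins at -69 in Iars, -43 in Eef2 and -39 in Farsb, and at 3 in Pus1, 25 in Trmt61a and 28 in Pus7. The second motif, TGATGNAAT (searched on both strands), is a form of the composite element bound by ATF4, a transcription factor of the amino acid response. It was found in 2 of 28 member windows (7.14%), against 0.521% of windows of all listed genes and 0.965% of all promoters. Among members that rose it was in 2 of 22 windows (9.09%), against 0.713% for all listed genes that rose. It begins at 6 in Iars, and at -244 in Pus7, outside the stretch printed. The TEAD motif GGAATG, also searched on both strands, was in 14.3% of member windows and 14.7% of all promoters. A C followed by 4 or more pyrimidines, beginning within 10 bases of the start on either side, was in 35.7% of member windows. It was in 24.3% of windows of all listed genes and 22.9% of all promoters. This is a loose search for the terminal oligopyrimidine run that marks many mRNAs for translation proteins. Runs wholly before the annotated start were counted too, so a match does not show such an mRNA. The motifs did not overlap in the stretches printed.

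Initiation factors were the largest family and had few members in the table. Of 47 annotated genes, 2 were listed, and they moved in opposite directions. The listed share was 4.26%, against 17.6% over all families and 11.9% of annotated protein-coding genes. How many of the 47 the authors tested is not known. Eif2b3, which encodes the gamma subunit of the exchange factor that recharges eIF2 with GTP, had 281.6 and 406.4 normalized counts in Lats1/2iΔLgr5, against 175.4 and 134.6 in WT. It rose 2.22-fold, or 1.15 ± 0.31 (SE) on the log2 scale (adjusted p 0.0108, the authors' deposited table). Eif1, which helps the scanning ribosome choose the correct start codon, had 5940.5 and 5935 normalized counts in Lats1/2iΔLgr5, against 8001 and 8008 in WT. The libraries of each genotype differed by far less than the genotypes did, and Eif1 fell 1.35-fold (log2 -0.43 ± 0.12 SE; adjusted p 0.0105, the authors' deposited table). On TMM scaling computed from the listed genes, it stood at -0.07 on the log2 scale (edgeR adjusted p 0.562). Eif1 transcripts share a stretch of at least 75 bases at 95% identity or more with 16 other annotated genes, most of them processed pseudogenes, so its count is uncertain.

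Eif2ak2 encodes PKR, the double-stranded RNA sensor that phosphorylates eIF2 and halts initiation, and is itself induced by interferon. It was the 1 gene listed of 8 eIF2 kinases, 4E-BPs and related regulators. It had 1134 and 1079 normalized counts in Lats1/2iΔLgr5, against 2111 and 2855 in WT. Of the libraries, WT 2 was the highest. Its mean was 1107 ± 39.5 in Lats1/2iΔLgr5 and 2483 ± 526 in WT (SD, n = 2 each), a 2.24-fold fall (adjusted p 9.63e-06, the authors' deposited table). Irf7 and Oas1a, interferon-induced genes picked outside the lists, were also highest in WT 2. Irf7 had 341.3 and 222.0 normalized counts in Lats1/2iΔLgr5, against 1225 and 3558 in WT, and Oas1a had 503.4 and 359.5, against 1330.1 and 2392. How many other interferon-induced genes showed this order was not counted. Without WT replicate 2 the log2 fold change of Eif2ak2 was -0.93, against -1.17 with all libraries.

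Both core elongation factors rose, by small amounts at very high levels. Eef1a1, which carries charged tRNA to the ribosome, had 136396 and 143247 normalized counts in Lats1/2iΔLgr5, against 104621 and 102628 in WT. Eef2, which moves the ribosome along the mRNA, had 43719 and 47370.0 normalized counts in Lats1/2iΔLgr5, against 34677 and 34135 in WT. The rises were 1.35-fold for Eef1a1 and 1.32-fold for Eef2, and the authors' deposited table lists them at adjusted p 0.00836 and 0.0213. With any 1 of the 4 libraries left out, both lost the edgeR call, while the log2 fold change stayed between 0.40 and 0.47 for Eef1a1 and between 0.35 and 0.46 for Eef2. Eef1a1 shares long stretches with 20 other annotated genes, most of them processed pseudogenes, so its count is uncertain; Eef2 shares one with a single processed pseudogene.

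Eef1e1, despite its symbol, encodes AIMP3, a scaffold of the multi-synthetase complex. It had 552.3 and 602.6 normalized counts in Lats1/2iΔLgr5, against 363.4 and 290.1 in WT, and rose 1.77-fold (log2 0.82 ± 0.22 SE; adjusted p 0.00993, the authors' deposited table).

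After termination, ABCE1 splits the ribosome into its subunits. Abce1 had 3522 and 4290.1 normalized counts in Lats1/2iΔLgr5, against 2668 and 2278 in WT, and rose 1.58-fold (adjusted p 0.00814, the authors' deposited table). Abcf2, a related ATPase without a membrane domain, had 1449 and 1743 normalized counts in Lats1/2iΔLgr5, against 1021 and 1119 in WT, and rose 1.49-fold (adjusted p 0.0254, the authors' deposited table). Neither gene's groups overlapped, as in 99.9% of listed genes. Abce1 transcripts share stretches of at most 185 bases with 83 other annotated genes, so its count is uncertain. No other gene of the termination, recycling and ABCF set of 7, which includes the release factor genes Etf1 and Gspt1, was listed.

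**Figure D3:**
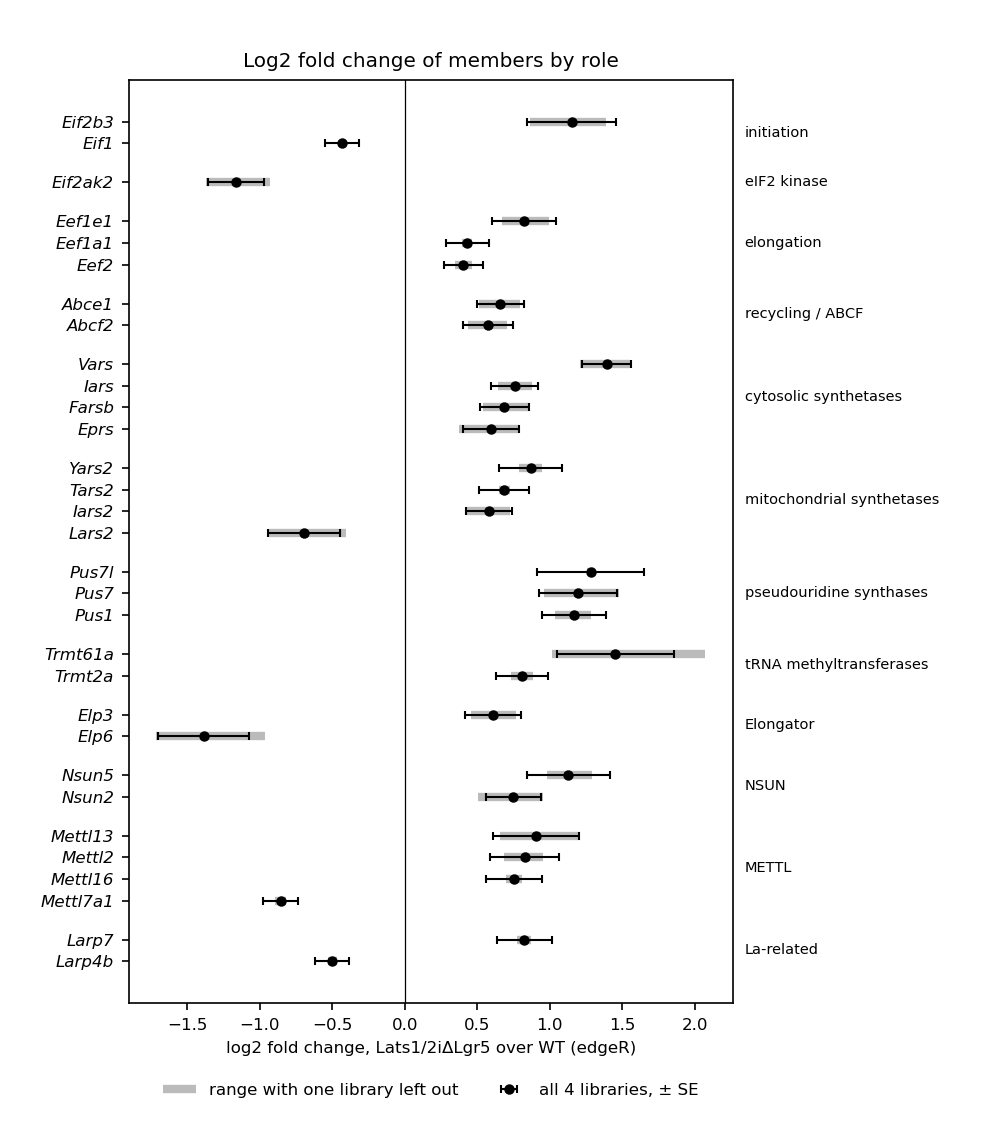
Log2 fold change of 31 members in edgeR (x axis, Lats1/2iΔLgr5 over WT; black points with bars of ± SE), grouped by role down the page. Grey bars span the values with a single library left out. No grey bar crosses 0, and the widest belong to Trmt61a (1.02 to 2.07) and Elp6 (-1.71 to -0.96).

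All 4 listed cytosolic synthetases rose, against 42.9% of all listed genes. Of 20 annotated, 20.0% were listed, against 11.9% of annotated protein-coding genes. Vars (chromosome 17, 35000987 to 35016322, GRCm38), the valyl-tRNA synthetase gene, had 2693 and 3409 normalized counts in Lats1/2iΔLgr5, against 1166 and 1159 in WT. Its mean was 3051 ± 507 in Lats1/2iΔLgr5 and 1163 ± 4.85 in WT (SD, n = 2 each), a log2 fold change of 1.39 ± 0.17 (SE). Its adjusted p in the authors' deposited table, 1.12e-09, was the smallest of the 32 members.

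Iars, the isoleucyl-tRNA synthetase gene, had 2168 and 2438 normalized counts in Lats1/2iΔLgr5, against 1471 and 1251 in WT. Farsb, which encodes the beta subunit of the phenylalanyl enzyme, had 2310 and 2503 normalized counts in Lats1/2iΔLgr5, against 1659 and 1330.1 in WT. The rises were 1.69-fold for Iars and 1.61-fold for Farsb, at adjusted p 0.0011 and 0.00581 (the authors' deposited table). Eprs, whose product charges both glutamate and proline tRNAs, had 3054 and 4078 normalized counts in Lats1/2iΔLgr5, against 2592 and 2129 in WT. It lay nearest the threshold of all members in the authors' deposited table (adjusted p 0.0497) and rose 1.51-fold. Its log2 fold change of 0.60 was 0.37 without Lats1/2iΔLgr5 replicate 2. Eprs shares stretches of at most 207 bases with 233 other genes and Iars shares 1656 bases with a processed pseudogene, so both counts are uncertain, and Farsb overlaps exons of Sgpp2 on the opposite strand. Iars and Farsb hold the E-box in the promoters printed above.

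Of 17 mitochondrial synthetase genes, 4 were listed, of which 3 rose and 1 fell. Yars2, the tyrosyl enzyme gene, had 394.8 and 440.8 normalized counts in Lats1/2iΔLgr5, against 229.7 and 228.3 in WT. Tars2, the threonyl enzyme gene, had 836.6 and 821.4 normalized counts in Lats1/2iΔLgr5, against 502.3 and 527.2 in WT. Both pairs of libraries were tight, and the rises were 1.82-fold and 1.61-fold (adjusted p 0.00641 for Yars2 and 0.00471 for Tars2, the authors' deposited table). Iars2, the mitochondrial isoleucyl enzyme gene, had 2618 and 3234 normalized counts in Lats1/2iΔLgr5, against 1879 and 2034 in WT, and rose 1.50-fold (adjusted p 0.0192, the authors' deposited table). Iars2 shares 2034 bases with Rab3gap2 on the opposite strand, the longest such overlap among the members, and Tars2 shares stretches of at most 118 bases with 12 genes, so both counts are uncertain.

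Lars2 (chromosome 9, 123366940 to 123462664, GRCm38), the mitochondrial leucyl-tRNA synthetase gene, went against the other 3. It had 16978 and 12447 normalized counts in Lats1/2iΔLgr5, against 28188 and 19439 in WT. Replicates differed widely in both groups, with WT 2 closer to Lats1/2iΔLgr5 1 than to WT 1. The mean was 14712 ± 3203 in Lats1/2iΔLgr5 and 23813 ± 6186 in WT (SD, n = 2 each), a 1.62-fold fall (adjusted p 0.0449, the authors' deposited table). The log2 fold change of -0.69 ± 0.25 (SE) was -0.40 without WT replicate 1 (edgeR adjusted p of 0.104) and -0.34 on TMM scaling (adjusted p of 0.255).

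Lars2 also stood apart in level. Per kilobase of annotated exon its normalized counts were 4.03 times those of the next mitochondrial synthetase gene listed in Lats1/2iΔLgr5, and 9.75 times in WT. The mitochondrial ribosomal RNA gene mt-Rnr2 showed the same order of libraries as Lars2, with 15241 and 11505 normalized counts in Lats1/2iΔLgr5, against 32437 and 17338 in WT. Annotated Lars2 transcripts share no stretch of 75 bases at 95% identity with any other annotated transcript, mt-Rnr2 included. The mt-Rnr2 gene was picked outside the lists. Since the groups did not overlap in 99.9% of listed genes, few orders of libraries were possible for a gene that fell. How many such genes shared this order was not counted. Whether the counts of Lars2 and mt-Rnr2 have a common source was not tested.

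**Figure D4:**
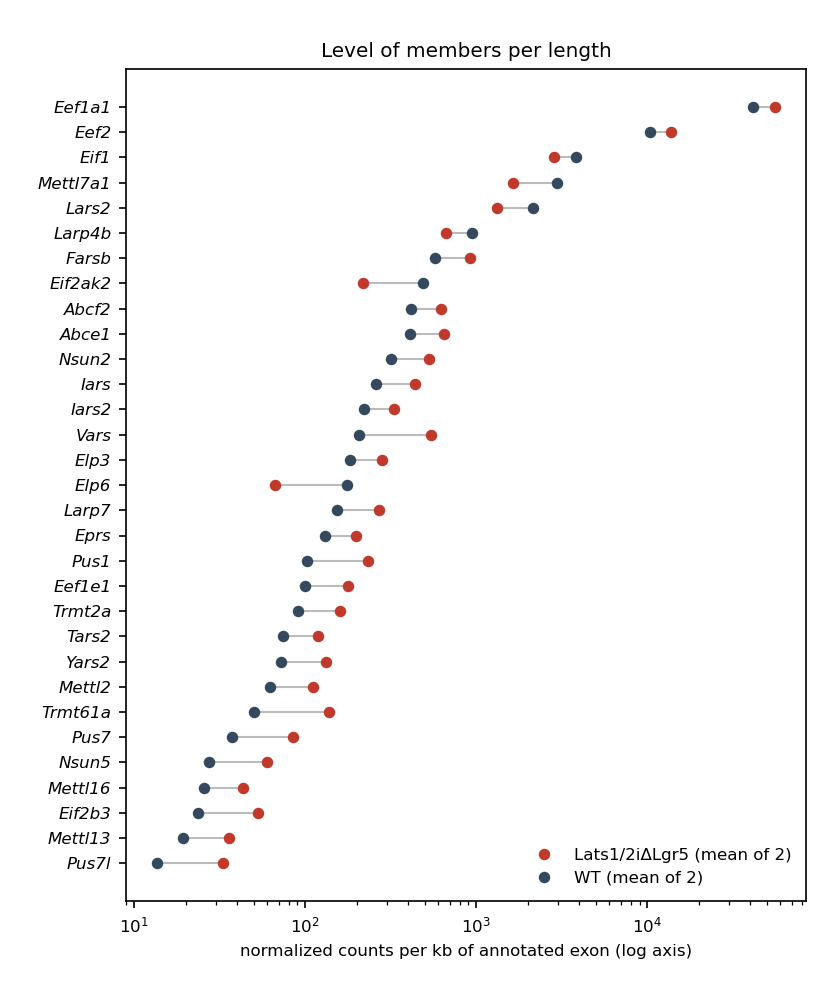
Mean level of 31 members in normalized counts per kilobase of annotated exon (x axis, log scale), in Lats1/2iΔLgr5 (red) and WT (dark), each the mean of 2 libraries, ordered by the WT level. Eef1a1 and Eef2 lead. Of the 6 members that fell, Eif1, Mettl7a1, Lars2 and Larp4b follow directly below them.

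Of the 5 annotated pseudouridine synthase genes named Pus, 3 were listed, and all 3 rose. That share, 60.0%, was the highest of the families, against 17.6% over all of them, and rests on few genes. Enzymes of this kind under other names are not in the count. Pus1, which modifies tRNAs of the nucleus and of mitochondria, had 461.8 and 548.7 normalized counts in Lats1/2iΔLgr5, against 222.1 and 227.2 in WT. Pus7, which acts on tRNAs and mRNAs, had 619.3 and 793.3 normalized counts in Lats1/2iΔLgr5, against 363.4 and 253.7 in WT. The rises were 2.25-fold for Pus1 and 2.29-fold for Pus7 (adjusted p 0.000148 and 0.00126, the authors' deposited table). Pus7l, a related gene at a low level, had 107.7 and 110.2 normalized counts in Lats1/2iΔLgr5, against 45.4 and 44.1 in WT, and rose 2.43-fold (adjusted p 0.0288, the authors' deposited table). Pus7 shares sequence with 11 other genes, up to 810 bases with a processed pseudogene, and its count is uncertain. The log2 fold changes of the 3 genes lay within 1 SE of each other, at 1.17 ± 0.22 for Pus1, 1.20 ± 0.27 for Pus7 and 1.28 ± 0.37 for Pus7l.

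Both listed tRNA methyltransferase genes rose, against 42.9% of all listed genes. Of 16 annotated, 12.5% were listed, against 11.9% of annotated protein-coding genes. Trmt2a, whose product makes 5-methyluridine in tRNA, had 804.0 and 892.6 normalized counts in Lats1/2iΔLgr5, against 474.5 and 493.0 in WT, and rose 1.75-fold (adjusted p 0.00118, the authors' deposited table). Trmt61a, the catalytic subunit gene of the enzyme that makes 1-methyladenosine in tRNA, had 308.7 and 359.5 normalized counts in Lats1/2iΔLgr5, against 165.3 and 79.4 in WT. The WT libraries differed from each other by more than the Lats1/2iΔLgr5 libraries did. Trmt61a had the highest log2 fold change of the members, 1.45 ± 0.40 (SE), which was 2.07 when WT replicate 1 was left out and 1.02 when WT replicate 2 was. Exons of Trmt2a overlap Dgcr8 and Ranbp1 on the opposite strand, and whether the counting used strand is not given, so its reads and theirs cannot be told apart.

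Elongator, which modifies the wobble uridine of tRNA, had listed subunit genes that moved in both directions. Elp3, the catalytic subunit gene, had 835.7 and 845.7 normalized counts in Lats1/2iΔLgr5, against 612.0 and 493.0 in WT, and rose 1.52-fold (adjusted p 0.0375, the authors' deposited table). Elp6, a subunit of the accessory ring, moved the other way, with 193.8 and 189.9 normalized counts in Lats1/2iΔLgr5, against 373.5 and 629.8 in WT. The fall was 2.61-fold, the largest among the 6 members that fell (adjusted p 0.00138, the authors' deposited table). Its log2 fold change of -1.39 ± 0.31 (SE) was -0.96 when WT replicate 2 was left out and -1.71 when WT replicate 1 was. Elp6 transcripts share stretches of 75 bases or more at 95% identity with 47 other genes, so its count is uncertain.

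The 2 listed genes of the NSUN family of cytosine methyltransferases rose, against 42.9% of all listed genes. Of 6 annotated, 33.3% were listed, against 11.9% of annotated protein-coding genes. Nsun2, which methylates tRNAs and other RNAs, had 2575 and 3514 normalized counts in Lats1/2iΔLgr5, against 1880.3 and 1742 in WT. Nsun5, which methylates the large-subunit ribosomal RNA, had 239.9 and 278.2 normalized counts in Lats1/2iΔLgr5, against 131.2 and 105.9 in WT. Rises of 1.68-fold and 2.19-fold were listed at adjusted p 0.00766 for Nsun2 and 0.00696 for Nsun5 in the authors' deposited table. Both overlap exons of protein-coding genes on the opposite strand, Tent4a for Nsun2 and Pom121 for Nsun5, which makes their counts uncertain.

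The METTL name joins methyltransferase-like proteins with unlike substrates, and 4 of 28 annotated genes were listed. Mettl2, whose product makes 3-methylcytidine in tRNA, had 341.3 and 410.3 normalized counts in Lats1/2iΔLgr5, against 220.8 and 202.9 in WT, and rose 1.77-fold (adjusted p 0.0203, the authors' deposited table). Mettl16, which methylates adenosine in spliceosomal RNA and in the mRNA for the enzyme that makes S-adenosylmethionine, had 619.3 and 573.7 normalized counts in Lats1/2iΔLgr5, against 367.2 and 340.8 in WT, and rose 1.68-fold (adjusted p 0.00713, the authors' deposited table). Mettl16 shares stretches of at most 93 bases with 20 other genes. Mettl13, whose product methylates the elongation factor eEF1A, rose 1.87-fold (adjusted p 0.0451, the authors' deposited table).

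Mettl7a1 encodes a membrane methyltransferase found at the endoplasmic reticulum and lipid droplets, with no established role in tRNA, and it fell. It had 4125 and 4366 normalized counts in Lats1/2iΔLgr5, against 7607 and 7765 in WT. The 1.81-fold fall (log2 -0.86 ± 0.12 SE) had the smallest adjusted p in the authors' deposited table among the members that fell, 1.31e-07. Its transcripts share up to 1512 bases at 95.4% identity with the paralog Mettl7a2, so reads may be divided among the copies and the count is uncertain.

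Of 6 La-related protein genes, 2 were listed, of which 1 rose and 1 fell. Larp7, which binds and stabilizes the small nuclear RNA that restrains transcription elongation, had 648.3 and 636.2 normalized counts in Lats1/2iΔLgr5, against 374.8 and 350.7 in WT, and rose 1.77-fold (adjusted p 0.00176, the authors' deposited table). It shares 764 bases with Gm12666, an annotated protein-coding gene, so its count is uncertain. Larp4b, a poly(A)-binding-protein partner that acts on mRNA stability and translation, had 5497 and 5738 normalized counts in Lats1/2iΔLgr5, against 7910 and 7977 in WT. It fell 1.41-fold (adjusted p 0.00307, the authors' deposited table), with a log2 fold change of -0.50 that was -0.14 on TMM scaling (edgeR adjusted p of 0.292). None of the 3 Tsr ribosome maturation genes was listed.

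Related genes outside the name rule were counted from lists of known pathway members. Genes of these lists that were not listed by the authors were not analysed. For comparison, 11.9% of annotated protein-coding genes were listed, and 42.9% of all listed genes rose. Of 46 other tRNA modification enzymes and partners, 9 were listed and all 9 rose. Nat10, an acetyltransferase of ribosomal RNA and tRNA, had 742.4 and 981.7 normalized counts in Lats1/2iΔLgr5, against 355.9 and 287.9 in WT (adjusted p 9.58e-06, the authors' deposited table). Wdr4, the non-catalytic partner of the 7-methylguanosine tRNA methyltransferase, had 503.4 and 670.6, against 236.0 and 214.0 (adjusted p 3.6e-05, the authors' deposited table). The libraries of the genotypes did not overlap in either gene, as in 99.9% of listed genes. With the 10 listed members of the Pus, Trmt, Nsun and Elp families, of which 9 rose, Elp6 was the 1 listed tRNA modification gene that fell outside the METTL family.

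Of 43 RNA polymerase III and tRNA processing genes, 7 were listed and all 7 rose, while 42.9% of all listed genes did. Among them were Polr3e and Polr3g of the polymerase, Pop1, Rpp38 and Rpp40 of the RNase P and MRP complexes that trim precursor RNAs, and Elac2, which trims the tRNA 3′ end. Polr3e rose 1.91-fold (adjusted p 0.00848, the authors' deposited table). Of 15 scaffold and tRNA quality genes, 3 were listed and all 3 rose. Dtd1, which removes D-amino acids from tRNA, and Aimp2, a scaffold of the multi-synthetase complex, rose 2.16-fold and 2.14-fold (adjusted p 0.00406 and 0.00961, the authors' deposited table). Of 13 genes in a list for mitochondrial translation, Lrpprc alone was listed, and it rose 1.63-fold.

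Of 39 other translation control genes, 9 were listed, of which 7 rose and 2 fell. Gcn1l1, whose product senses stalled ribosomes and helps activate the eIF2 kinase GCN2, had 2345 and 2686 normalized counts in Lats1/2iΔLgr5, against 1240.5 and 1130.5 in WT (adjusted p 2.31e-07, the authors' deposited table). Dph1, Dph2, Dph5 and Dph6, named here after their values were seen, all act in making diphthamide, the modified histidine of eEF2, and rose between 1.70-fold for Dph2 and 2.54-fold for Dph1. Cpeb2 and Cpeb4, also read together after their values were seen, encode proteins that bind 3′ elements of mRNAs and control their poly(A) tails. Cpeb2 had 1060.3 and 1027 normalized counts in Lats1/2iΔLgr5, against 1998 and 2236 in WT (adjusted p 3.24e-07, the authors' deposited table), and Cpeb4 fell 2.12-fold.

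The integrated stress response, in which phosphorylated eIF2 favours translation of ATF4, split: of 26 genes, 7 were listed, of which 3 rose and 4 fell. Atf4, named after its values were seen, had 4830.4 and 5251 normalized counts in Lats1/2iΔLgr5, against 8333 and 8427 in WT. Ppp1r15b, a phosphatase subunit that removes the phosphate from eIF2, had 5461 and 5502 normalized counts in Lats1/2iΔLgr5, against 9364 and 10390 in WT (adjusted p 7.32e-07, the authors' deposited table). Both fell, as did Chac1 and Cebpg. The 3 that rose, Psat1, Phgdh and Shmt2, make serine and glycine or use them for one-carbon units, and Shmt2 had 809.4 and 923.0 normalized counts in Lats1/2iΔLgr5, against 333.2 and 393.7 in WT (adjusted p 3.56e-06, the authors' deposited table).

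Of 28 genes of the mTORC1 pathway, which controls translation in response to nutrients, Deptor alone was listed, and it fell 1.43-fold (adjusted p 0.0497, the authors' deposited table). Of 13 genes of Myc and its partners, 4 were listed, of which 2 rose and 2 fell. Myc, a factor that binds the E-box, had 541.4 and 819.9 normalized counts in Lats1/2iΔLgr5, against 280.2 and 253.7 in WT. Myc was highest in Lats1/2iΔLgr5 2, as were most members that rose. Lats1/2iΔLgr5 2 was above Lats1/2iΔLgr5 1 in 70.7% of all listed genes that rose, so this order is common. Mxd1, which competes with Myc for the partner Max, had 11688 and 6529 normalized counts in Lats1/2iΔLgr5, against 19875 and 29815 in WT (adjusted p 0.000334, the authors' deposited table). Mycl rose and Mxi1 fell. No part of Myc in the members' levels was tested.

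**Figure D5:**
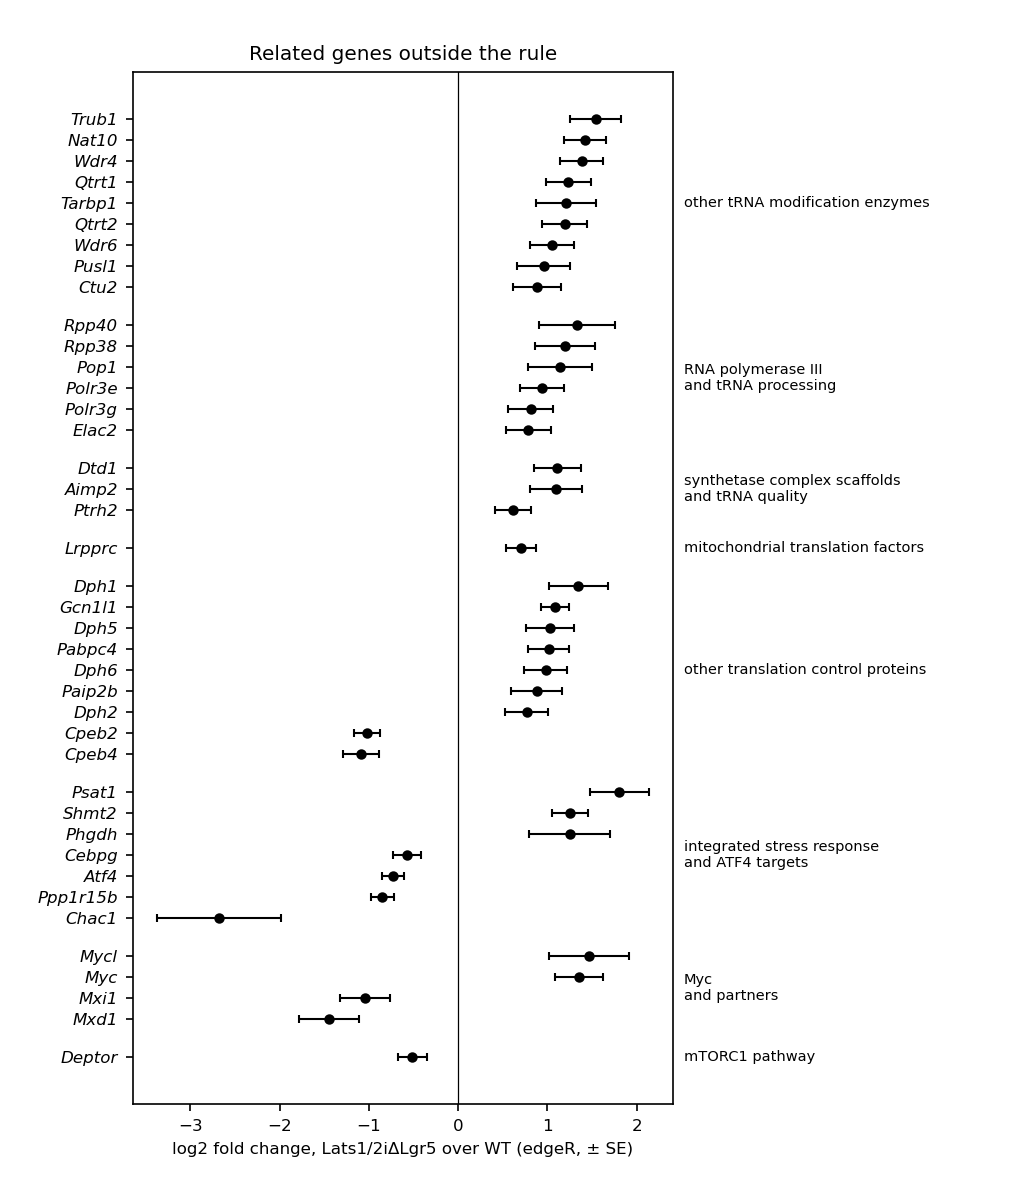
Log2 fold change in edgeR (x axis, Lats1/2iΔLgr5 over WT, ± SE) of listed genes in each related list, grouped by list down the page. Every plotted tRNA modification, RNA polymerase III and scaffold gene lies right of 0. The stress response and Myc lists lie on both sides, with Psat1 and Chac1 at the ends of the stress response list.

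In edgeR's quasi-likelihood test on the authors' size factors, all 32 members were called at an adjusted p under 0.05 (26 higher, 6 lower; adjusted p from 0.0117 to 0.0328). That test called 42.9% of listed genes higher and 57.1% lower, since the table holds genes already selected for a difference. On TMM scaling, which raises the median log2 fold change over all listed genes by 0.36, the calls over all genes were 1157 higher and 494 lower (18.3% of listed genes; 70.1% of calls higher), and among the members 26 higher and 3 lower, with Eif1, Larp4b and Lars2 losing their calls. Without Lats1/2iΔLgr5 replicate 2 edgeR called 0 members (14 at an unadjusted p under 0.05) and 5 of all listed genes, while the members' median log2 fold change was 0.68, against 0.75 with all libraries. Each fit to 3 libraries has 1 residual degree of freedom. Without Lats1/2iΔLgr5 replicate 1 it called 13 members higher and 3 lower, with a median of 0.80. Sequence shared with other annotated genes, on either strand, was found for 21 of the 32 members. Every member kept its direction in each of these fits.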

How the data were processed

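RNA-seq read counts from 4 libraries were analysed. Per the submitters' processing notes, the authors used TopHat2 2.1.1, HTSeq, DESeq2 and build GRCm38; settings, strand use included, were not stated there. The deposited counts are raw whole numbers for each gene in each library. Further columns, per the file headers, hold the authors' base mean (a signal: the mean normalized count), log2 fold change with its standard error, Wald statistic (a score), p-value and adjusted p-value. GENCODE M21 symbols matched 2698 of 2701 IDs. Deposited starts lie 1 base below GENCODE's in 2214, so 1 was added.

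The authors' size factors were recovered from base means and counts as 1.10 and 1.28 for Lats1/2iΔLgr5 1 and 2 and 0.792 and 0.907 for WT 1 and 2 (rebuilt base means deviate by at most 0.0119%). "Rose" and "fell" refer to the authors' threshold. Counts were fitted in edgeR 4.0.16 (quasi-likelihood, genotype as the one factor, filterByExpr, Benjamini-Hochberg adjustment over 2700 genes), tested on simulated data first. Alternatives were TMM, DESeq2 1.42.0 scaling and test, no filter, a replicate block and leaving out each library. P-values from a table limited by significance are not independent of the authors' selection. With 2 libraries per group, precision is low, and the part of counting error in it was not measured. Shared sequence was searched with blastn 2.17.0 over GENCODE transcripts. Exon length is the union of annotated exons.

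The members and lists were chosen with earlier results of these data known. Named in full are, per role, the 3 members with the smallest deposited adjusted p, the one with the highest base mean and those against their group's majority, and 2 genes per related list. Values of 1 member and 1 related gene are not reported here; both stay in the counts and medians.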

Additional observations from a re-analysis of the deposited data

How the results depend on the processing

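Of 320 log2 fold changes of single members under the alternatives, 255 kept their direction and call, 65 kept their direction but lost the edgeR or DESeq2 call, and 0 reversed; 58 of the 65 arose with a library left out. On TMM scaling, 3 members and 494 of all listed genes were called lower, against 6 and 1541 on the authors' factors, and the members' median log2 fold change was 1.11, against 0.75. With DESeq2 size factors computed from the listed genes these values were 3, 432 and 1.16. Both scalings assume that most genes in the table do not change, and shift all log2 fold changes up by 0.36 and 0.41.

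With a library left out in turn, members called higher ranged from 0 to 23 and lower from 0 to 6, all listed genes called higher from 4 to 1038 and lower from 1 to 1416, and the members' median log2 fold change from 0.66 to 0.81. Counts of calls were lowest without Lats1/2iΔLgr5 replicate 2. Calls lost without WT replicate 1 were Abcf2, Eef1a1, Eef2 and Lars2, and without WT replicate 2 Eef1a1, Eef2, Elp3, Eprs, Mettl13 and Pus7l.

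With the replicate number as a block, 26 members were called higher and 6 lower. Deviations of same-numbered libraries correlated at -0.162 across 2701 genes, so crossed numbers were also tried, an alternative chosen after the data were seen, with 26 higher and 5 lower. DESeq2's test and no filter also called 26 and 6. The effect of depth on single members was not tested.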
